A study of Homo sapiens with 4 samples.

Results

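SLK, TASOR2, GUSB, CREB3L2 and UQCC1 are 5 protein-coding genes with peaks singled out in the Flag-AKT1 E17K RIP-seq list by their enrichment ratio or by a test of it. Together their gene spans contained 31 of the 4838 peaks in that list and 0 of the 808 peaks in the Flag-AKT1 WT list. The WT list holds at most 1 peak on each chromosome and strand label where these genes have peaks, so that 0 is no measurement. The genes were chosen by the measured values of 1 peak each. The peaks of SLK, GUSB and CREB3L2 had some of the highest ratios of immunoprecipitate to control reads, and those of SLK, TASOR2 and UQCC1 passed a test of this ratio against the whole list. Of the 4838 peaks, 1 other with a ratio above the rest of the list passed it. The leading peaks of the 5 genes are therefore given as a description, and the p-values that chose them are not evidence. Only the other 26 peaks of the genes, which were not used for the choice, were tested further.

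MDA-MB-231, a mesenchymal-like human breast cancer line, was transfected with a plasmid for Flag-tagged AKT1, either wild-type (WT) or with the E17K change. For each plasmid there is 1 anti-Flag immunoprecipitate and 1 input library, 4 libraries in all, from rRNA-depleted RNA. The bait is expressed from a plasmid in cells that also carry their own AKT1, and with 1 library per group no value below has an error between replicates. For every peak the deposited lists hold 1 count of immunoprecipitate reads and 1 of control reads, but no library totals. The control was read as the input because the samples are labelled so, although control IgG is also mentioned in the series description. Of 6 mesenchymal-like markers, 5 had at least 1 E17K peak (VIM, CD44, CAV1, AXL and SPARC), and MSN lies on chromosome X, where the Flag-AKT1 E17K list is empty. None of 5 luminal markers had a peak, which says nothing for CDH1, a gene on the plus strand of chromosome 16, since peaks carried the label opposite to their gene and that chromosome has plus labels only.

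RNA immunoprecipitation recovers the RNAs that come down with a tagged protein, and the input shows how abundant each RNA was before the pulldown. A peak with many immunoprecipitate reads may simply lie in an abundant RNA, so the ratio to the control reads is the measure of enrichment. The 5 genes encode proteins of different functions. SLK is a Ste20-like serine/threonine kinase that acts on the cytoskeleton and on focal adhesions. TASOR2 is the paralogue of TASOR, a subunit of the HUSH complex that silences transgenes and transposable elements. GUSB is beta-glucuronidase, a lysosomal enzyme that degrades glycosaminoglycans and a common reference gene in RT-qPCR. CREB3L2 is a bZIP transcription factor that is anchored in the endoplasmic reticulum membrane and, once cleaved, activates genes of the secretory pathway. UQCC1 is an assembly factor of respiratory complex III that helps to make cytochrome b.

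Over the 31 peaks, 1746 immunoprecipitate reads stood against 608 control reads, a fold of 2.87. The pooled fold of the whole list was 1.95, and its median peak had a fold of 2.18. Folds are not scaled for library size, and a control of 3 reads or fewer was counted as 3. For peaks with 1 to 3 control reads the plain ratio is given too where the peak is described on its own, with a 95% interval derived from the Wilson interval of the immunoprecipitate share. Such intervals cover counting error only. None of the 31 peaks overlapped the span of a second annotated gene.

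SLK had 4 peaks on chromosome 10. Its leading peak, from 104025571 to 104026275, held 29 immunoprecipitate reads and 1 control read, a ratio of 29 (interval 5.00 to 168). With that control read counted as 3, the fold was 9.67. The other SLK peaks held 21 and 5 reads, 18 and 6 reads, and 19 and 7 reads. Their folds of 4.20, 3.00 and 2.71 were all above the median of the list and all below that of the leading peak.

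GUSB had 5 peaks on chromosome 7. The leading peak, from 65974256 to 65974685, held 29 immunoprecipitate and 2 control reads, a ratio of 14.5 (interval 3.83 to 54.9) and a fold of 9.67. The deepest GUSB peak was another, at the 3′ end of the gene, with 38 and 18 reads and a fold of 2.11. The remaining 3 peaks were shallow, with 11 or 12 immunoprecipitate reads each against 4, 2 and 3 control reads from the 5′ side. The second of these, next to the leading peak, had a ratio of 5.5 (interval 1.37 to 22.1), which overlaps the interval of the leading peak. The third had a ratio of 3.67 (interval 1.10 to 12.2). GUSB has near-identical pseudogene copies whose reads could be divided among them by the alignment. The 5 GUSB pseudogenes listed for comparison (GUSBP1, GUSBP2, GUSBP4, GUSBP9 and GUSBP11) had 0 peaks, which does not show how such reads were divided.

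CREB3L2 had 11 peaks on chromosome 7, the most of the 5 genes. The leading peak, from 137882511 to 137882725, held 27 immunoprecipitate and 2 control reads, a ratio of 13.5 (interval 3.55 to 51.3) and a fold of 9. Its neighbour on the 5′ side, 2150 bp away, held 12 and 1 reads, a ratio of 12 (interval 2.0 to 71.9) and a fold of 4. The interval of this neighbour includes the list median of 2.18, and 20.5% of all peaks with 11 to 20 immunoprecipitate reads reached a fold of 4. Past these 2 peaks toward the 3′ end, the 7 peaks within the last 6 kb of the gene had folds between 2 and 3. Together they summed to 313 and 126 reads, a fold of 2.48 (interval 2.02 to 3.05). The 2 peaks farther upstream summed to 34 and 19 reads, a fold of 1.79 (interval 1.03 to 3.11), which overlaps that of the 3′ group.

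TASOR2 and UQCC1 differ from these genes in depth. The leading TASOR2 peak on chromosome 10, from 5746221 to 5749980, held 582 immunoprecipitate and 202 control reads, a fold of 2.88 (interval 2.46 to 3.38). Among the 248 peaks of the list with more than 300 immunoprecipitate reads it had the highest fold, followed by 2.76, and the median of these peaks was 1.99. With the cut at 200 reads, 5 of 433 peaks, itself included, had a fold at least as high. The other 9 TASOR2 peaks ranged from 12 to 113 immunoprecipitate reads and from 1.33 to 4.50 in fold. The 3 deepest of these had 222 and 88 reads in sum (fold 2.52, interval 1.97 to 3.23), and the 6 shallow ones 95 and 34 (fold 2.79, interval 1.89 to 4.12). UQCC1 had a single peak, on chromosome 20 from 35302571 to 35304075, with 273 and 88 reads and a fold of 3.10 (interval 2.44 to 3.94). It had the highest fold of the 433 peaks with at least 200 immunoprecipitate reads, whose median was 2.02. Over the whole list, at any depth, the fold of the leading TASOR2 peak was at percentile 78.3 and that of the UQCC1 peak at 82.7. Both peaks were chosen by a test of their ratio, so nothing is read from their ranks. With no second peak, nothing in UQCC1 is independent of the choice.

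**Figure D1:**
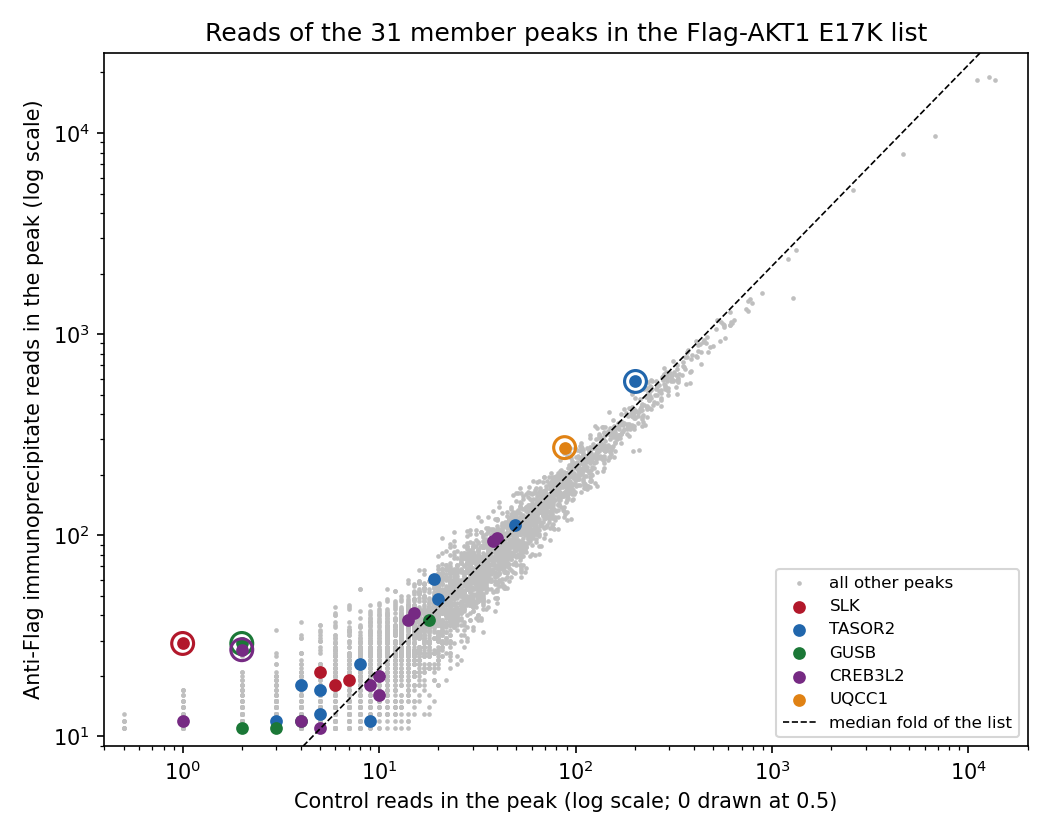
Control reads (x axis, log scale) against anti-Flag immunoprecipitate reads (y axis, log scale) of each peak of the Flag-AKT1 E17K list, with the peaks of the 5 genes in colour, the leading peak of each gene ringed, and a dashed line at the median fold of 2.18. The ringed peaks of SLK, GUSB and CREB3L2 lie at 1 or 2 control reads, and those of TASOR2 and UQCC1 lie at the upper edge of the peaks of their depth.

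The leading peaks of SLK and GUSB had few control reads rather than many immunoprecipitate reads for their width. In SLK, the leading peak had 41.1 immunoprecipitate reads per kb, within the 40.4 to 76.6 of the other peaks, but 1.42 control reads per kb, compared to 10.6 to 25.5. In GUSB, it had 67.4 immunoprecipitate reads per kb, within the 51.2 to 88.4 of the others, and 4.65 control reads per kb, compared to 9.30 to 41.9. In the whole list these immunoprecipitate densities were at the percentiles 5.63 and 26.4, and the control densities at 0.238 and 1.0. Both peaks are among the 131 of the list with 21 to 50 immunoprecipitate reads and a fold of at least 4. The medians of these 131 were 85.1 immunoprecipitate and 17.02 control reads per kb. The 1404 peaks of that depth with a lower fold had 104 and 44.84. Few control reads thus went with a high fold in general, so nothing is read from this for SLK and GUSB. CREB3L2 was different, since its leading peak had both the highest immunoprecipitate density of the gene (126 reads per kb, others 51.2 to 113) and a control density of 9.30, with 1 of the 10 other peaks lower. At the fold of the other peaks of the same gene, 9 control reads would go with the leading peak of SLK, 10.9 with that of GUSB and 11 with that of CREB3L2. The leading TASOR2 peak had the highest density of the gene in both libraries, with 155 immunoprecipitate and 53.7 control reads per kb.

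High folds were common among shallow peaks throughout the list. A fold of at least 4 was reached by 20.5% of the 1324 peaks with 11 to 20 immunoprecipitate reads, by 8.53% of those with 21 to 50, by 0.966% of those with 51 to 100 and by none of those with more than 300. The list has 159 peaks with 27 to 29 immunoprecipitate reads, a range set by the leading peaks themselves. Their median control count was 12 (quartiles 9 and 15), and only 3 of them, which are the leading peaks of SLK, GUSB and CREB3L2, had 2 control reads or fewer. In order of fold over the whole list, CDK6 came first with 11.3, GUSB and SLK were level at 9.67, NEAT1 had 9.25 and CREB3L2 9. Just outside came AP3B1 with 8.67 and PSMA2 and PAXIP1 with 8.33 each, on 25 or 26 reads. In the Fisher's exact test of each peak against the rest of the list, the adjusted p-values were 7.26e-04 for TASOR2, 0.0463 for UQCC1 and 0.0488 for SLK. A peak in the spans of RNA28SN2 and RNA45SN2 (97 and 21 reads) ranked 4, also at 0.0488. The first coding gene past the threshold of 0.05 was DDAH1 (518 and 194 reads, adjusted p-value 0.0566). These values chose the genes and are not evidence for them.

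The question was whether the high ratio of the leading peak was shared by the other peaks of its gene. Of the 26 other peaks, 4 (15.4%) had a fold of at least 4, compared to 8.54% of all peaks. The 4 were the first SLK peak from the 5′ side, the peak next to the leading one in CREB3L2, and 2 TASOR2 peaks, with 12 and 3 reads (ratio 4, interval 1.21 to 13.2) and with 18 and 4 reads. By depth, they were 3 of the 16 other peaks with 11 to 20 immunoprecipitate reads, where 20.5% of the list reached this fold, and 1 of the 6 with 21 to 50, where 8.53% did. On plain ratios the count was 5 of 26 (19.2%), compared to 9.49% of the list, the added peak being that of GUSB with 11 and 2 reads. At a fold of at least 3 it was 11 of 26 (42.3%), compared to 20.3%. The median fold of the 26 peaks was 2.72, and 21 of them were above the median of the list. The last 3 comparisons are not matched for depth. Peaks with 11 to 20 immunoprecipitate reads, as 16 of the 26 had, reached a median fold of 2.43 in the list.

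Summed without the leading peak, the genes were closer to the list. SLK had 58 immunoprecipitate and 18 control reads in its other peaks, a fold of 3.22 (interval 1.91 to 5.44). GUSB had 72 and 27, a fold of 2.67 (interval 1.72 to 4.14). Both intervals include the pooled fold of the list. TASOR2 had 317 and 122 reads, a fold of 2.60 (interval 2.11 to 3.20), and CREB3L2 had 359 and 146, a fold of 2.46 (interval 2.03 to 2.98). These lie above the pooled fold of 1.95, and the lower bounds of the intervals are 2.11 and 2.03. Without the AKT1 peaks the pooled fold is 2.06, which the CREB3L2 interval includes. Both intervals include the list median of 2.18. Among the 1014 genes with at least 2 peaks, all treated in the same way, the folds of the other peaks were at the percentiles 96.7 for SLK, 90.4 for GUSB, 88.4 for TASOR2 and 85.5 for CREB3L2. These percentiles are not matched for depth.

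In a two-sided Fisher's exact test of these reads against the rest of the list, a comparison within this pair of libraries that says nothing about the spread between samples, p was 0.00644 for TASOR2, 0.0186 for CREB3L2, 0.0686 for SLK and 0.202 for GUSB. After Benjamini-Hochberg adjustment over the 1014 genes, the p-values of Fisher's exact test were 0.177, 0.305, 0.539 and 0.815, and 0 of the 4 members passed the threshold of 0.05. More immunoprecipitate reads at that threshold were found in 11 genes (1.08%), and at an unadjusted p under 0.05 in 63 (6.21%), which include TASOR2 and CREB3L2. The reference also matters. Against the list without the AKT1 peaks, unadjusted p-values from Fisher's exact test were 0.0286 for TASOR2, 0.0715 for CREB3L2, 0.111 for SLK and 0.284 for GUSB. Against peaks of the same chromosome and strand label, whose pooled folds were higher, the folds relative to the reference were 1.5 for SLK, 1.22 for TASOR2, 1.22 for GUSB and 1.13 for CREB3L2, with unadjusted p-values from Fisher's exact test between 0.0715 and 0.448. In an exact binomial test against the list median of 2.18, unadjusted p-values were 0.111 for TASOR2, 0.174 for SLK, 0.231 for CREB3L2 and 0.449 for GUSB. A difference from the list was thus not detectable after adjustment at this depth. The peak with the lowest p was left out of each gene before this test, for the members and for all genes alike.

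**Figure D2:**
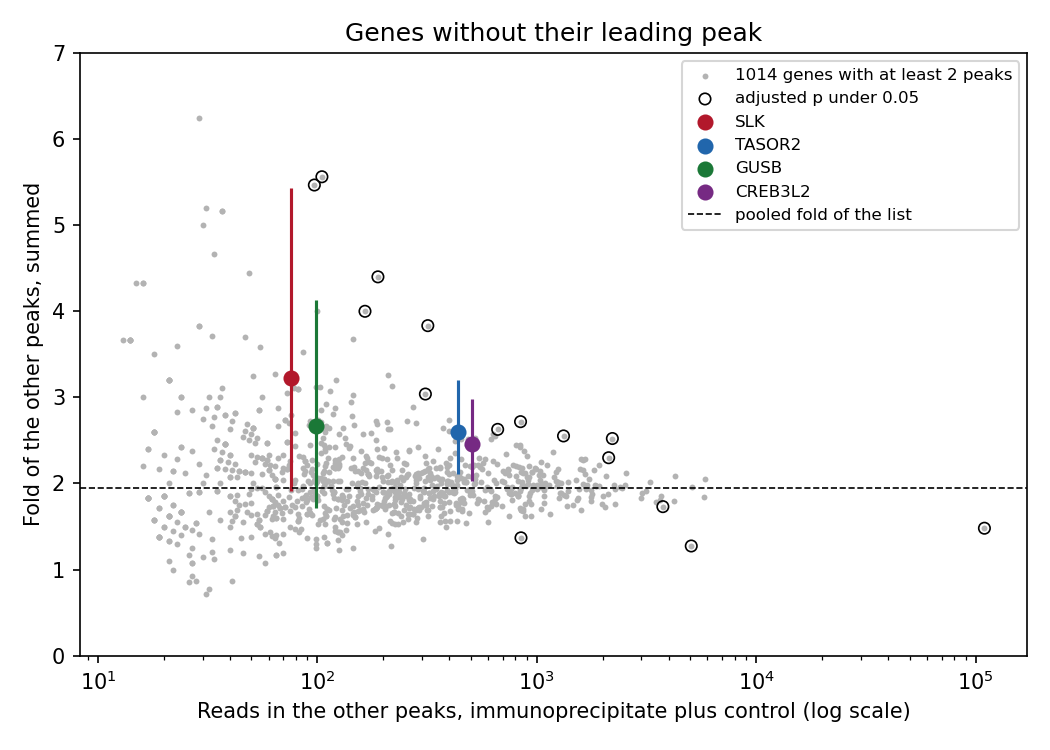
Reads in the other peaks of each gene, immunoprecipitate plus control (x axis, log scale), against their summed fold (y axis) for 1014 genes, with the leading peak of each gene left out. The 4 members are in colour with 95% intervals, open circles mark genes with an adjusted p-value under 0.05, and the dashed line is the pooled fold of 1.95, above which all 4 members lie without an open circle.

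How far the leading peak stood above the other peaks was also compared between genes, as a description. The fold of the leading peak was 3.66 times that of the other peaks in CREB3L2, 3.62 times in GUSB and 3.00 times in SLK, but 1.11 times in TASOR2. The median was 1.42 (quartiles 1.20 and 1.75) over the 835 genes with at least 50 reads in their other peaks. CREB3L2, GUSB and SLK ranked 7, 8 and 22 in that order, and TASOR2 ranked 728. The 5 genes with the highest values were NEAT1 (4.48), CDK6 (4.17), AP3B1 (3.93), PSMA2 (3.91) and ALDH7A1 (3.76). In each of them the leading peak had 3 or 4 control reads and 23 to 37 immunoprecipitate reads. In TASOR2 the leading peak was thus close to the sum of the others. In SLK, GUSB and CREB3L2 it was higher, but these genes were chosen by that ratio, so nothing is read from their ranks. In each of these genes at least 1 other peak had a ratio interval that overlaps that of the leading peak. The size of this gap depends on how 1 or 2 control reads are treated. With such counts taken as they are, the values became 9 for SLK, 5.44 for GUSB and 5.49 for CREB3L2.

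**Figure D3:**
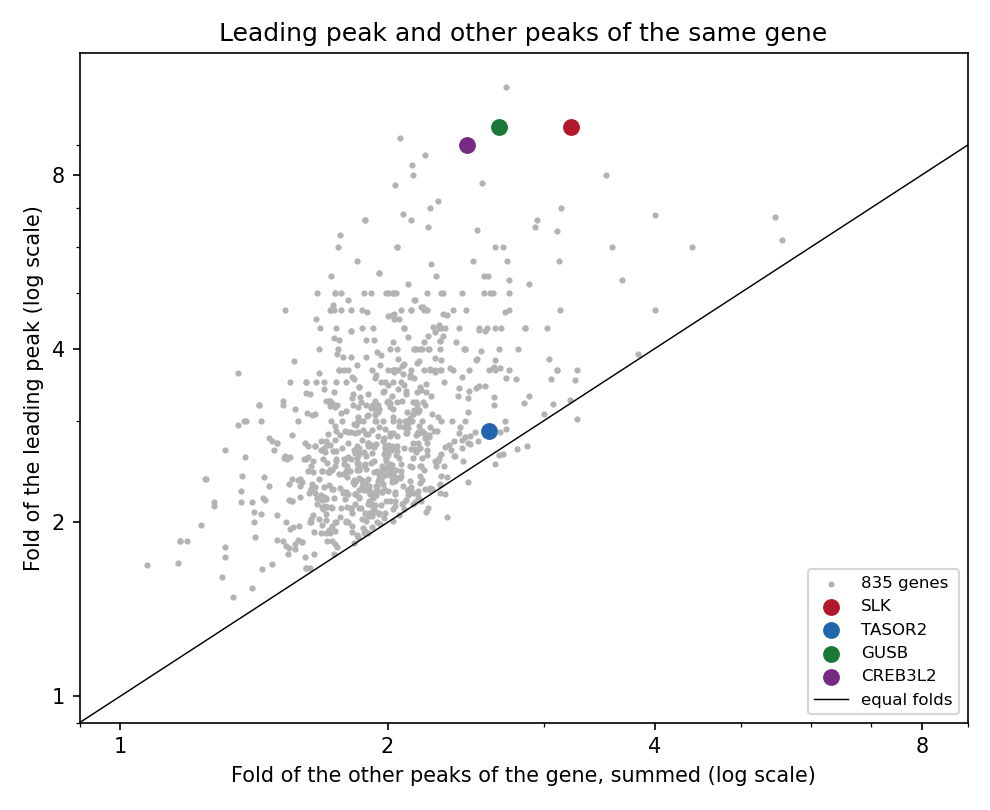
Summed fold of the other peaks (x axis, log scale) against the fold of the leading peak (y axis, log scale) for 835 genes with at least 50 reads in the other peaks, in grey, and for the 4 members with more than 1 peak, in colour. SLK, GUSB and CREB3L2 lie at leading folds of 9.67, 9.67 and 9, and TASOR2 lies close to the line of equal folds.

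By the share of reads, the leading peak held 33.3% of the immunoprecipitate reads and 5.26% of the control reads of SLK, 28.7% and 6.90% of those of GUSB, and 6.99% and 1.35% of those of CREB3L2. In TASOR2 the shares were 64.7% and 62.3%. Summed over all peaks, leading peak included, SLK had 87 and 19 reads, a fold of 4.58 (interval 2.80 to 7.48). A summed fold of at least 4 was found in 4.65% of the 1936 genes with a peak, and SLK was the only member among them. The summed folds were 3.48 for GUSB, 3.10 for UQCC1, 2.77 for TASOR2 and 2.61 for CREB3L2. These sums contain the values that chose the genes, so nothing is read from their order.

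The place of each peak was taken from the RefSeq gene spans of GRCh38.p14, since no annotation with exons was used here. Whether a peak lies in an exon, an intron or the last exon was not analysed. The lists name no build, and the submitters' processing notes name hg18, but 98.9% of the Flag-AKT1 E17K peaks fell in a GRCh38 gene span, compared to 61.7% after all positions were moved by 1000000 bp. The leading SLK peak began 58.4 kb from the 5′ end of the gene and ended 2.96 kb before its 3′ end. That of CREB3L2 ended 7.53 kb before the 3′ end of a span of 127 kb, and the UQCC1 peak lay at the 3′ end itself and reached 7 bp past it. The leading peaks of these 3 genes were in the last 10% of the span by their midpoints. The leading TASOR2 peak had its midpoint at 80.2% of the span and that of GUSB at 36.0%.

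The 3′ end was a common place for peaks in general. Of 2992 peaks in a single coding gene of known strand, 29.7% lay in the last 10% of the span, compared to 14 of the 31 member peaks (45.2%), 9 of which belong to CREB3L2. Measured by distance the order was the opposite, since 42.6% of the 2992 peaks but 9 of the 31 member peaks (29%) lay within 5 kb of the 3′ end. The median fold of the 2992 peaks was 2.18 in the last 10% and 2.17 elsewhere. The 5′ ends held fewer peaks, 2.74% in the first 10%. TASOR2 and CREB3L2 each had 1 such peak, starting 283 bp and 251 bp into the gene, with 12 and 3 reads and with 16 and 10 reads.

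**Figure D4:**
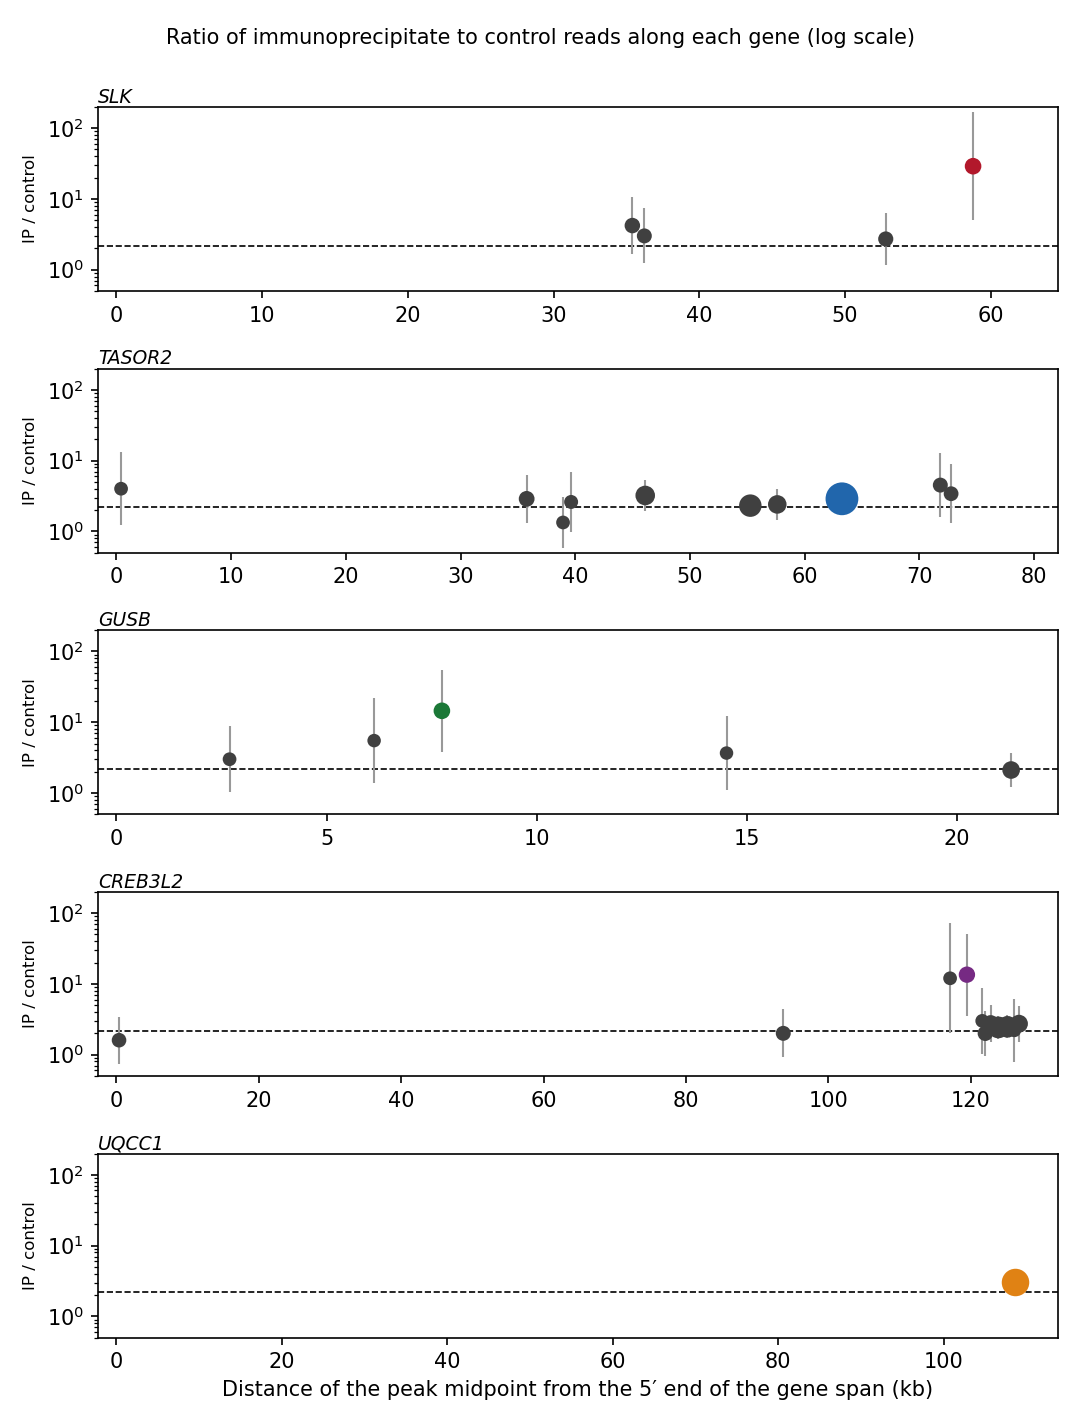
Ratio of immunoprecipitate to control reads of each peak (y axis, log scale) by the distance of its midpoint from the 5′ end of the gene span in kb (x axis), with 95% intervals, larger points for more reads, the leading peak in colour and a dashed line at the median fold of 2.18. The leading peak of SLK is highest at a ratio of 29, that of GUSB lies beside a ratio of 5.5 and that of CREB3L2 beside a ratio of 12, and the TASOR2 peaks lie between 1.33 and 4.50 along the whole gene.

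All 31 peaks carried the strand label opposite to the strand of their gene, as did 99.7% of the 2992 peaks in a single coding gene. SLK and TASOR2 are on the plus strand and their peaks were labelled minus. GUSB, CREB3L2 and UQCC1 are on the minus strand and their peaks were labelled plus. Peak edges fell on a fixed grid that differed between chromosomes and labels, with steps of 235 bp at SLK and TASOR2 and of 215 bp at GUSB, CREB3L2 and UQCC1. The leading CREB3L2 peak was 1 step wide, that of GUSB 2, that of SLK 3, that of UQCC1 7 and that of TASOR2 16. Edges are therefore known only to a step of this grid. The authors' p-values for the leading peaks were 1.05e-06 for SLK, 6.12e-14 for GUSB, 5.62e-33 for CREB3L2, 4.57e-27 for UQCC1 and 2.46e-64 for TASOR2. They do not follow the order of the folds, and the low value of CREB3L2 rests on 27 reads.

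In the Flag-AKT1 WT list the 5 genes had no peak, but this gives no measurement of their RNA. That list has 0 peaks on the plus label of chromosomes 7 and 20 and 1 peak on the minus label of chromosome 10, compared to 658, 57 and 520 E17K peaks in the same places. No ratio between the plasmids was therefore calculated for any of the 5 genes.

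Genes of the same pathways were looked up as well. Of 91 genes listed as relatives or partners of the 5 members, 12 had a peak in the Flag-AKT1 E17K list, with summed folds between 1.13 and 2.42, and 0 reached a fold of 4, which 4.65% of all genes with a peak did, so that a count of 0 of 12 is no result about them. Of the 91, 25 lie on chromosomes without any peak in that list. Of the 67 whose strand was known, 33 lie where the label opposite to their strand has none. STK10, the closest relative of SLK, had 447 and 242 reads (fold 1.85), and RDX, the cytoskeletal linker radixin, had 29 and 12 (fold 2.42). TRIM28, a corepressor of transposable elements, had 1015 and 585 reads (fold 1.74) and was the only gene of the HUSH list with a peak. Of the lysosomal genes, CTSB (198 and 90 reads, fold 2.2), CTSD (741 and 380, fold 1.95) and ASAH1 (13 and 7, fold 1.86) had peaks. The secretory pathway list had HSPA5, the chaperone BiP, with 2558 and 1356 reads (fold 1.89), PDIA4 with 515 and 269 (fold 1.91) and the stress sensor ATF6 with 26 and 23 (fold 1.13). Of complex III, UQCRB (118 and 54 reads, fold 2.19), CYC1 (388 and 201, fold 1.93) and UQCRH (70 and 43, fold 1.63) had peaks. Of the 12, RDX, CTSB and UQCRB exceeded the median summed fold of 2.13 over all genes with a peak, as did 967 of all 1936. The 12 were not matched for depth, so nothing is read from this count.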

How the data were processed

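The authors deposited 1 peak list per plasmid, in which each peak has raw read counts for immunoprecipitate and control. The p-value and adjusted p-value of each peak in the lists are the authors' own. Their log odds scores and reads per kilobase columns were not used. Per the submitters' processing notes, Bowtie2 2.2.8 and hg18 were used. The peak caller and its filters are not given in the sources used here, and library totals are unknown, so depth is known only inside peaks. The list has 484463 immunoprecipitate and 248412 control reads for E17K, 15.1% and 19.7% of them in 5 AKT1 peaks. Without these peaks the pooled fold is 2.06.

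A peak was given to each RefSeq gene span it overlapped by at least 1 bp. All 5 members matched by symbol, and strands came from the RefSeq promoter table. The leading peak of a gene is that with the lowest Fisher p among peaks above the rest of the list. The other peaks of each gene were tested against the list with Fisher's exact test (scipy 1.17.1, Python 3.11.15), with Benjamini-Hochberg adjustment over all genes with at least 2 peaks, and the code was tested on simulated data. Tables and plots used numpy 2.4.6, pandas 2.3.3 and matplotlib 3.10.9. The genes named are the members, listed relatives with a peak, markers, and the 5 genes whose leading peak exceeded the other peaks most. CDK6, NEAT1, AP3B1, PSMA2, PAXIP1, DDAH1, RNA28SN2 and RNA45SN2 were also named after their values were seen. The members and the gene lists were chosen with earlier results of these data known. Alternatives were another overlap rule, other choices of the leading peak and of the reference, a binomial test, filters on reads and on the authors' adjusted p-value, and, chosen after seeing the data, plain ratios.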

Additional observations from a re-analysis of the deposited data

How the results depend on the processing

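Of 82 values recalculated for 17 results, 73 kept their direction and side of the threshold or stayed within their interval or 1.5 times the count, and 9 did not. With the leading peak chosen by the highest fold, 1 member in place of 0 had more immunoprecipitate reads in its other peaks. This was TASOR2, with a fold of 1.41 relative to the reference in place of 1.33 and an adjusted p-value of 1.61e-05 in Fisher's exact test. By construction its other peaks then include the peak of 582 reads that chose the gene. With both that peak and the peak of highest fold left out, its adjusted p-value was 0.276. Over its alternatives the TASOR2 value ran from 1.61e-05 to 0.510. Under the same choice by fold the leading TASOR2 peak was 1.63 times the others in place of 1.11. The number of genes whose other peaks had more immunoprecipitate reads was 11, and it was 19 with the leading peak chosen by fold, 5 with both peaks left out, 6 against peaks of the same chromosome and label and 6 in the exact binomial test against the median fold. What lowers the count for the last pair was not tested. Restricted to peaks of at least 20 immunoprecipitate reads each, the summed fold of SLK was 8.33 in place of 4.58, because 2 of its other peaks, with 18 and 19 reads, drop out. At a fold of at least 3 in place of 4, 11 of the 26 other peaks passed, 42.3% compared to 20.3% of the list, shares not matched for depth. For all 4 tested members the other peaks stayed above the reference under each alternative run. These runs reuse the same reads, and their references were not matched for depth. With at least 20 immunoprecipitate reads per peak, SLK and GUSB each kept 1 other peak. That of GUSB had a fold of 2.11, which is 1.09 times its reference but below the list median of 2.18. No paired analysis was possible because each group has 1 library. The leading peaks of SLK, GUSB and CREB3L2 rest on 1 or 2 control reads, which is what limits their folds.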
